A study of Capsicum annuum with 4 samples.

Results

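The genes described here were the abundant transcripts of mature Chiltepin fruit that were already detected in immature fruit at a much lower level. They were chosen by their measured levels: at least 500 CPM (counts scaled to a library of fixed size) in both libraries at 68 days after anthesis (DAA), a mean CPM at 68 DAA of at least 4 times the mean at 20 DAA, and more than 3 counts in at least 1 library at 20 DAA. Genes that the study listed as ripening genes in its supplement were left out. CPM is the count of a gene divided by all counts on genes in its library, times 1000000. Of 35884 gene models, 98 met the rule and are called members. The same values chose the members and measure them, so their levels and fold changes between the stages are given as a description, and their calls support nothing.

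Chiltepin is a wild pepper (Capsicum annuum var. glabriusculum) whose small fruits turn from green to red. RNA-Seq was done on whole fruits, with pericarp, placenta and seeds, of plants grown in a greenhouse with no treatment. There were 2 libraries from immature fruits at 20 DAA and 2 from mature fruits at 68 DAA, each made from the pooled RNA of 6 fruits, and the comparison asks which transcripts differ between the immature and the mature fruit. Library values are given below in the order replicate 1, replicate 2.

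A messenger RNA pool is made of a few transcripts at very high levels and many at low levels, and in a tissue that matures the first of these can be replaced. During ripening of a fleshy fruit, chlorophyll is broken down, carotenoids build up, cell walls are taken apart and the seeds fill and dry, and each of these processes can bring transcripts to high levels. Counts measure parts of one pool, so a transcript that takes more of it leaves less room for all others, whether or not their own number per cell changes. The files and reference tables used here do not pair the members' identifiers with gene names, so no function can be given for any of them. Members are named by identifier, without the shared prefix CA.PGAv.1.6. In whole fruit, more cells of a type and more RNA per cell cannot be told apart, and the levels of the members could not be assigned to pericarp, placenta or seed.

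The libraries at 20 DAA held 24771773 and 21370765 gene counts, and those at 68 DAA 12139415 and 26130664. Replicate 1 at 68 DAA was the least deeply sequenced. The stage labels were checked with genes outside the members. PSY1, phytoene synthase of the carotenoid pathway, was at 17.3 and 18.5 CPM at 20 DAA and at 966 and 1318 CPM at 68 DAA. GLK2, a transcription factor of chloroplast development in green fruit, went the other way, from 139 and 159 CPM to 0.330 and 0.191 CPM. The stage labels and the levels of both genes go together in all 4 libraries. In the edgeR quasi-likelihood fit over 17160 tested genes, 8.22% were called higher at 68 DAA and 18.7% lower (adjusted p under 0.01 and at least 4-fold).

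At 68 DAA, 193 genes reached the CPM limit in both libraries, and the 98 members were the largest class among them. Another 73 were under 4-fold, 15 had at most 3 counts in each library at 20 DAA, and 7 were on the study's ripening list, 4 of which met every other part of the rule. The limits cut through continuous values. The member closest to the CPM limit was scaffold358.97, at 504.3 CPM in its lower library, and the closest gene outside reached 498.8 CPM. For the fold, scaffold723.30 was just inside at 4.06-fold and the closest gene outside was at 3.94-fold. For the count limit, the 2 members scaffold1161.30 and scaffold861.16 had 4 counts in their higher library at 20 DAA, and 2 genes with 3 counts fell outside.

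The members went from under 1% of the counts on genes in immature fruit to about 1 count in 4 in mature fruit. They held 0.722 and 0.741% at 20 DAA, and 22.8 and 25.7% at 68 DAA. The means were 0.731 ± 0.0134% (SD, n = 2) and 24.3 ± 2.03% (SD, n = 2), a ratio of 33.2. The libraries of each stage were close together and the stages did not overlap, as the rule requires of the sum.

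The other abundant genes of mature fruit took far less room. The 73 genes under 4-fold held 6.20% at 20 DAA and 7.63% at 68 DAA. The 15 genes with at most 3 counts at 20 DAA held 2.63% at 68 DAA, and the 7 listed ripening genes 1.78%. All genes outside the abundant class went from 93.0% to 63.7%.

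The mirror image of the rule, with the stages exchanged and the same limits, chose 116 genes. Their share was 16.9 ± 0.249% (SD, n = 2) in immature fruit and 0.716% in mature fruit. The members thus held more of the pool in mature fruit than their mirror image did in immature fruit, with fewer genes. Without the 2 members with the most counts, the members' share was 17.0%, about that of the whole mirror image.

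**Figure D1:**
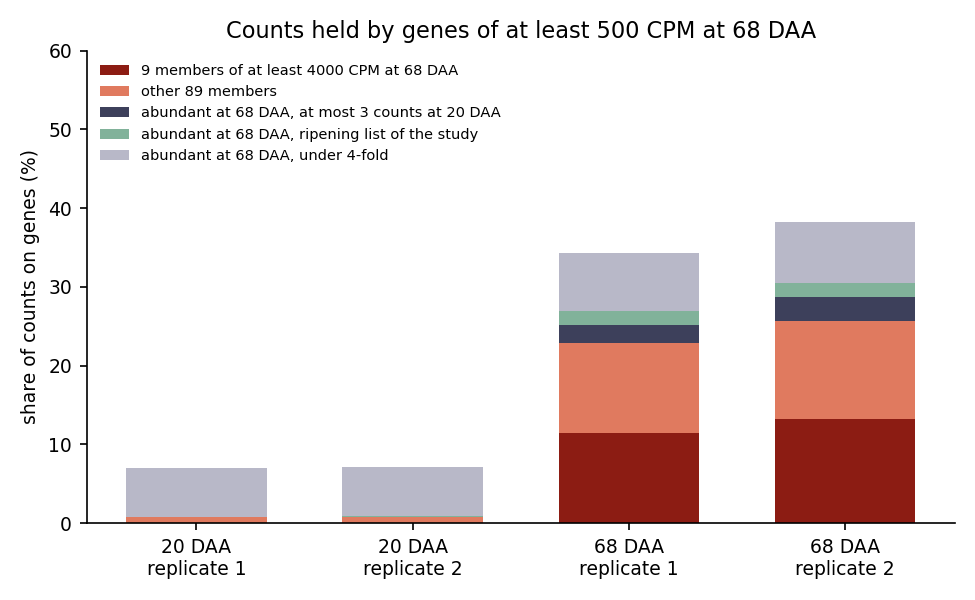
Share of the counts on genes (percent, bars from 0) held in each of the 4 libraries by the genes of at least 500 CPM in both libraries at 68 DAA, stacked by class. The 98 members (both red parts) are a thin line at 20 DAA, at 0.722 and 0.741%, and reach 22.8 and 25.7% at 68 DAA, while the genes under 4-fold differ little between the stages.

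The members' counts at 68 DAA were concentrated in few genes. The 9 members of at least 4000 CPM held 12.3% of the counts on genes and the other 89 held 12.0%. The first 2 alone held 7.29%, and without them the members' share was 17.0%. It took 63 members to reach 90% of the members' summed CPM. Of the 10 genes with the highest mean CPM at 68 DAA, 8 were members, and of the first 100, 59 were. None of the first 100 genes at 20 DAA was a member (0 of 100), where their ranks ran from 281 to 22035.

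The most abundant gene of mature fruit was the member scaffold1014.51 (chromosome 2, 148979234 to 148981110, minus strand, 3 exons). It had 287.7 and 309.5 CPM at 20 DAA and 39992 and 38949 CPM at 68 DAA. It was thus the 445th gene of immature fruit and the first of mature fruit, where it alone held 3.95% of the counts on genes. Its libraries agreed closely at both stages, with a log2 fold change of 7.30 ± 0.0721 (SE).

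The second, scaffold919.38 (chromosome 6, 233218796 to 233220292, minus strand), is a single exon of 1497 bp. Its counts at 20 DAA were 13 in each library, or 0.525 and 0.608 CPM, and its levels at 68 DAA were 30748 and 36090 CPM. With a 58986-fold difference it also had the largest fold of the members. The counts at 20 DAA alone leave that fold between 40257 and 90299 (exact Poisson 95% interval, counting error only). No gene of immature fruit came near this level: the most abundant gene at 20 DAA had a mean of 10983 CPM.

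Next came scaffold358.34 (chromosome 2, 156213692 to 156214388, plus strand, 2 exons). It was at 1.70 and 1.12 CPM at 20 DAA and at 12184 and 16203 CPM at 68 DAA, a 10072-fold difference. It follows the first 2 at some distance, and its libraries differed more than those of scaffold1014.51. The next 6 members, from scaffold929.14 down to scaffold35.9 (both named after their values were seen), had mean levels between 4696 and 9030 CPM at 68 DAA. Of the 9 members, 8 were under 5 CPM at 20 DAA, and scaffold1014.51 was the exception.

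**Figure D2:**
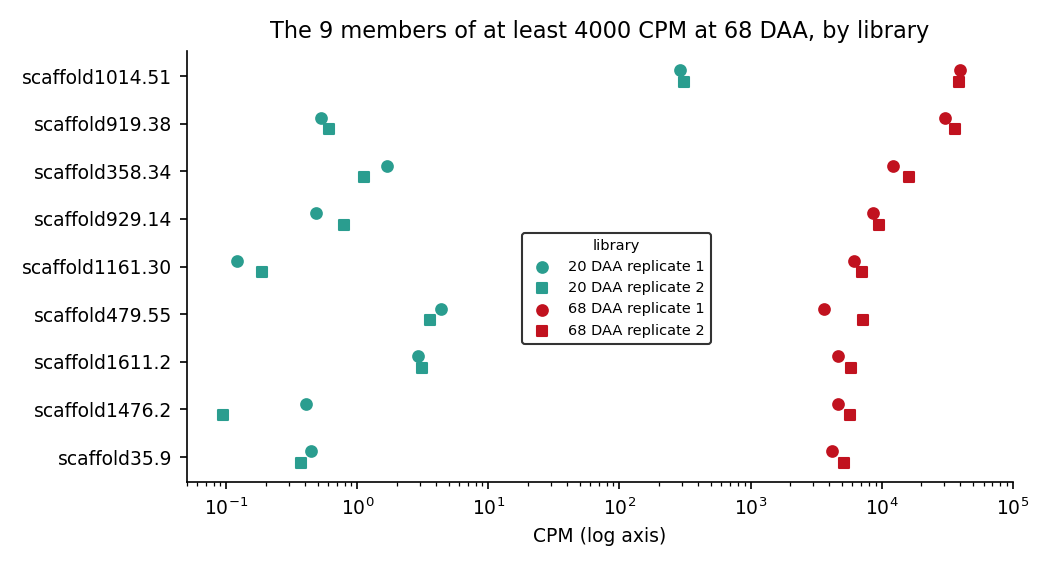
CPM (log axis) of the 9 members of at least 4000 CPM at 68 DAA in each library, with circles for replicate 1 and squares for replicate 2. The first, scaffold1014.51, starts at a mean of 299 CPM, while the other 8 start under 5 CPM, and in all 9 the libraries at 68 DAA lie above both libraries at 20 DAA.

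The members' levels spread more widely at 20 DAA than at 68 DAA, where the rule set a floor of 500 CPM. Mean levels at 20 DAA ran from 0.151 to 420.6 CPM with a median of 42.7 CPM, and at 68 DAA from 533 to 39470 CPM with a median of 1170 CPM. The fold accordingly ran from 4.06 to 58986 with a median of 33.2. Across the 98 members the level at 20 DAA was nearly unrelated to that at 68 DAA (Spearman's rho = -0.07, n = 98 genes that share the same libraries). The rule used both levels and kept only genes of at least 500 CPM at 68 DAA, so nothing is read from this value or from the width of the ranges.

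Members with a low and with a higher start held about equal parts of the pool. The 35 members under 10 CPM at 20 DAA went from 0.00882% of the counts on genes to 12.1%, and the 63 members of at least 10 CPM went from 0.722% to 12.2%. Nearly all of the members' counts in immature fruit thus came from the latter, and their counts in mature fruit came from both. Without scaffold1014.51, the latter held 8.24% at 68 DAA. The median level at 68 DAA was 1376 CPM in the low starting members and 934 CPM in the others.

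In finer classes, 14 members were under 1 CPM at 20 DAA and held 7.37% of the counts on genes at 68 DAA, with a median fold of 10896. Another 21 were from 1 to 10 CPM, with a median fold of 379. Then came 36 from 10 to 100 CPM, with a median fold of 23.5, and 27 of at least 100 CPM, with a median fold of 6.46. The 19 members of at least 1000-fold held 10.3% at 68 DAA. At most 10 counts in each library at 20 DAA stood behind 9 members, whose folds are therefore imprecise.

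One of these was scaffold1161.30 (chromosome 10, 233044568 to 233046602, minus strand), with 3 and 4 counts at 20 DAA, or 0.121 and 0.187 CPM, and with 6132 and 7060 CPM at 68 DAA. Its fold of 42793, the second largest, has a counting interval from 20770 to 106437. Another, scaffold861.16 (chromosome 3, 258395538 to 258396663, plus strand), had 4 and 3 counts at 20 DAA and 553 and 697 CPM at 68 DAA. With a similar start, the former reached a far higher level than the latter.

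At the other end, scaffold637.10 (chromosome 3, 257640219 to 257644001, plus strand, 5 exons) had the highest level of the members in immature fruit. It was at 386 and 455 CPM at 20 DAA and at 2285 and 2793 CPM at 68 DAA, 6.04-fold. After it came scaffold723.30 (chromosome 4, 224538965 to 224546550, plus strand, 12 exons), at 448 and 387 CPM at 20 DAA and at 1505 and 1885 CPM at 68 DAA. They ranked 281 and 284 among the genes of immature fruit, and 28 and 50 among those of mature fruit.

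**Figure D3:**
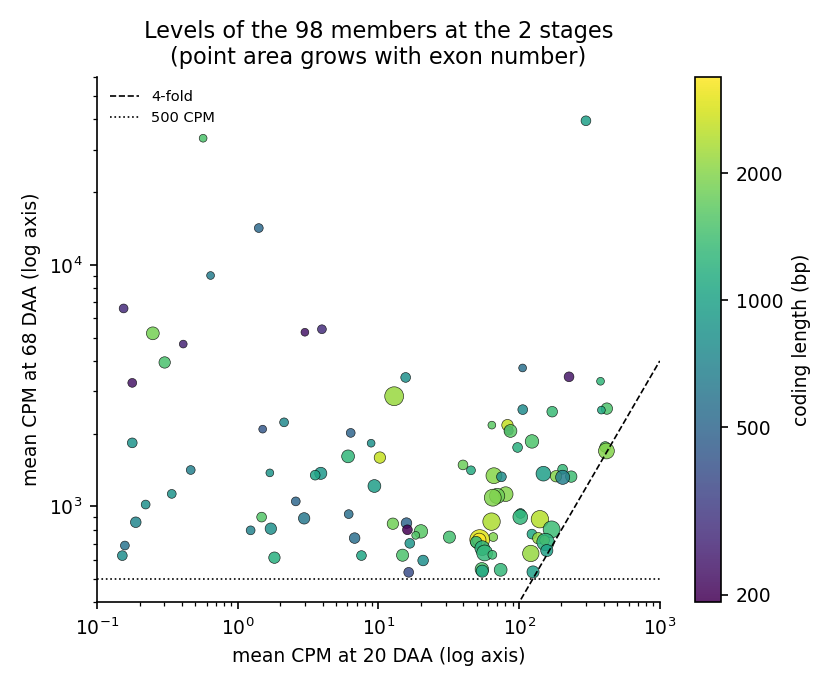
Mean CPM of the 98 members at 20 DAA (log axis) against 68 DAA (log axis), coloured by coding length, with point area growing with exon number and the 4-fold and 500 CPM limits as lines. The members spread over the whole range at 20 DAA, above the limits that chose them, and the short models with few exons lie mainly at the left and at the top.

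All 98 members passed the filter on low counts, and all 98 were called higher in the edgeR fit, against 8.22% of all tested genes. This count follows from the rule, which used the same contrast, and nothing is read from it. The members were 6.95% of all genes called higher. Their log2 fold changes ran from 2.29 to 16.10 with a median of 5.32, where the tested genes that are not members had a median of -0.05. The adjusted p of the members ran from 7.43e-06 to 0.00144. In 98 of 98 members the lower library at 68 DAA was above the higher library at 20 DAA, at least 3.13 times.

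The call of 1 member was lost when single libraries were left out. This member, scaffold307.4, singled out after its values were seen, was at 406 and 413 CPM at 20 DAA and at 1291 and 2231 CPM at 68 DAA. Its log2 fold change was 2.38, and 1.83 without replicate 2 at 68 DAA, under the 4-fold limit. Without either library at 20 DAA its adjusted p was 0.0147 or 0.0143 in the same edgeR test. The other members kept their call in all 11 alternative fits. These fits use the libraries that chose the members, so kept calls add no support.

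The libraries of a stage differed less than the stages, which the 4-fold limit of the rule largely fixed in advance. At 68 DAA the median difference between the libraries was 1.17-fold. A difference of at least 1.5-fold was seen in 11 of 98 members, and 1 member differed at least 2-fold. At the same stage 6 of 95 other abundant genes differed at least 1.5-fold, with a median of 1.12-fold, and 2995 of 16480 tested genes that are not members. The members thus differed more often than the other abundant genes, and less often than tested genes of any level. At 20 DAA the median was 1.14-fold, 17 members differed at least 1.5-fold and 5 at least 2-fold. At least 1.5-fold was also seen at 20 DAA in 921 of 16914 tested genes that are not members and in 2 of 83 other abundant genes, a smaller part of either set than of the members. However, the 17 members all had a mean of 10.2 CPM or less at 20 DAA. Only 83 of the 95 other abundant genes and 16914 of the 17062 tested genes that are not members entered at that stage. The sets are thus not alike in level, and the part of counting error in the difference was not tested. For tested genes that are not members, the median was 1.20-fold at 68 DAA and 1.09-fold at 20 DAA.

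The members did not all lean to the same library. The single member past 2-fold at 68 DAA was scaffold1120.2 (chromosome 4, 189651174 to 189651998, plus strand, 1 exon), with 7.95 and 9.78 CPM at 20 DAA and 2461 and 1190 CPM at 68 DAA. The opposite difference was seen in scaffold479.55 (chromosome 3, 270889636 to 270890037, plus strand, 2 exons), with 4.32 and 3.60 CPM at 20 DAA and 3632 and 7188 CPM at 68 DAA. In both, the difference between the stages was far larger than that between the libraries of a stage. The rule chose them for the former, so nothing is read from this.

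In all, 63 of 98 members were higher in replicate 2 at 68 DAA, where the members' share was also larger. So were 52 of 95 other abundant genes, and 5302 of 16480 tested genes that are not members. That library had 26130664 counts on genes against 12139415 in replicate 1, and a smaller share of its entries fell outside annotated genes, 18.4% against 23.5%. The part of depth in the difference was not tested.

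The gene models of the members were compared with 3 sets: all models, the tested genes that are not members, and the 95 other genes abundant at 68 DAA. Structure was no part of the rule, although a longer model collects more counts at the same number of transcripts. In all 35884 models the exons equal the coding sequence, so untranslated regions are not annotated and lengths are coding lengths.

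The members were ordinary in length and slightly poor in exons for expressed genes. Their median coding length was 1101 bp, against 873 bp over all models, 1140 bp in tested genes and 1128 bp in the other abundant genes. The median number of exons was 4, against 3, 5 and 5 in the same order. The median span from the first to the last exon was 2733 bp, against 2376, 3909 and 3096 bp. Whether the members looked long or short thus depended on the set beside them.

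Models of a single exon were 12 of the 98 members, or 12.2% (exact binomial 95% interval 6.49 to 20.4%), against 24.6% of all models and 15.9% of the tested genes. The interval treats the models as independent draws, while the members are all the genes that the rule gave, so it is no test of a difference. There were 7 members under 300 bp, or 7.14%, against 7.23% of all models and 2.94% of the tested genes that are not members. Models of at least 10 exons were 16.3% of the members and 19.8% of the tested genes. In the 95 other abundant genes, 14.7% had a single exon, 3.16% were under 300 bp and 16.8% had at least 10 exons. Structure thus ranged widely among the members, from 1 to 20 exons.

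Among the members, structure went with the level in immature fruit. The 35 members under 10 CPM at 20 DAA had a median of 2 exons and 753 bp, and none had 10 exons or more (0 of 35). The 63 members of at least 10 CPM had a median of 5 exons and 1368 bp, and 16 had 10 exons or more. Across the 98 members, Spearman's rho with the level at 20 DAA was 0.37 for exon number and 0.42 for coding length. With the fold it was -0.50 and -0.49. The rule used both the fold and the level at 20 DAA, so these correlations describe only the genes it kept. They come from genes of the same 4 libraries, which are not independent replicates.

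A part of this pattern was seen outside the members too. Tested genes that are not members had a median of 3 exons and 987 bp when under 10 CPM at 20 DAA, and of 5 exons and 1212 bp otherwise. Among the genes called higher that are not members, the 992 under 10 CPM had a median of 3 exons and 957 bp, and the 320 others 4 exons and 1200 bp. The low starting members were shorter than both, and the gap between low and high starters was wider in the members. The 15 abundant genes with at most 3 counts at 20 DAA had a median of 2 exons, like the low starting members, and of 582 bp.

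**Figure D4:**
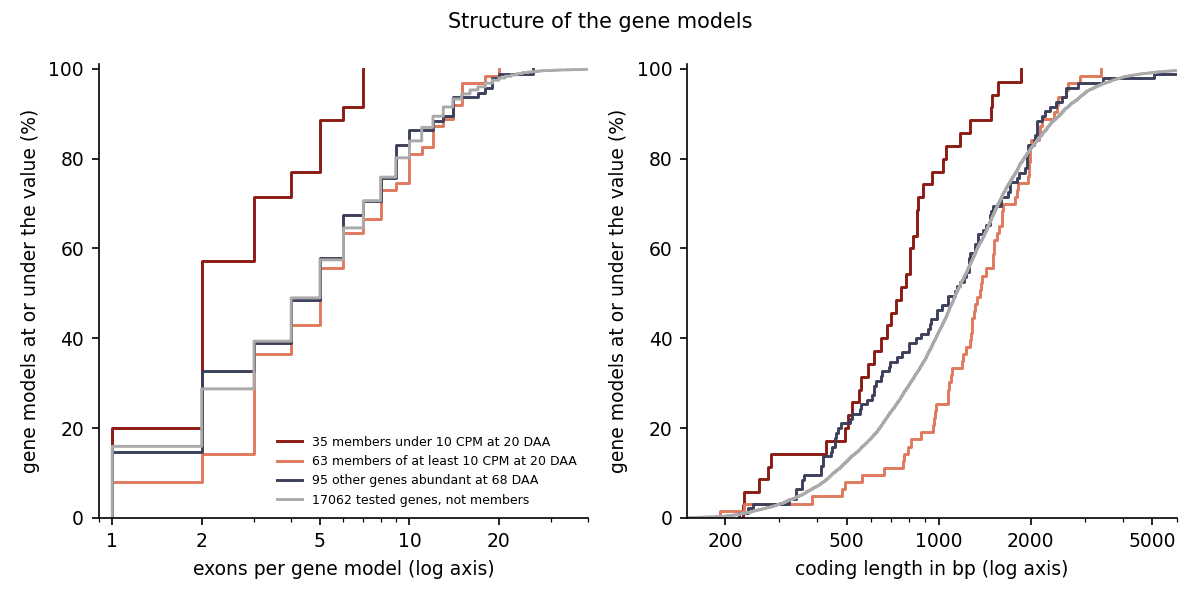
Cumulative share of gene models (percent) by exon number (left, log axis) and coding length in bp (right, log axis), for the members under and of at least 10 CPM at 20 DAA, the 95 other genes abundant at 68 DAA and the 17062 tested genes that are not members. The line of the 35 low starting members lies to the left, with medians of 2 exons and 753 bp, and that of the 63 others follows the tested genes in exon number.

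The most abundant members were short and had few exons. Of the 9 of at least 4000 CPM at 68 DAA, 4 had a single exon, 7 had 1 or 2, and 4 were under 300 bp, with medians of 2 exons and 519 bp. The 89 others had medians of 4 exons and 1191 bp, and 8 had a single exon. Spearman's rho over the 98 members was -0.39 between exon number and the level at 68 DAA, and -0.19 between coding length and that level. The rule used that level, so both values describe only the genes it kept. Weighted by counts at 68 DAA, the mean member had 3.50 exons and 1076 bp, against 5.09 exons and 1122 bp for the other abundant genes and 7.02 exons and 1458 bp for the tested genes that are not members. In weighted length the members were thus close to the other abundant genes.

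The members' share at 68 DAA grew when counts were divided by coding length before the share was taken. On that scale the members held 28.8% at 68 DAA and 0.600% at 20 DAA. At 68 DAA the first 2 members went down, from 7.29% to 5.41%, and the members without them went up, from 17.0% to 23.4%. Other classes changed too at 68 DAA. The 15 genes with at most 3 counts at 20 DAA went from 2.63% to 4.69%, and the genes under 4-fold from 7.63% to 8.14%. The 7 listed ripening genes went from 1.78% to 1.75%. Per kb of coding length, the highest levels at 68 DAA were those of scaffold1014.51 (40733 CPM per kb), scaffold358.34 (27348 CPM per kb) and scaffold1161.30 (23899 CPM per kb). The last has a coding length of 276 bp and is one of the shortest members. Untranslated regions are not part of these lengths.

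The extremes of length were not the extremes of level. The 2 longest members were scaffold567.102 (chromosome 1, 261216 to 270953, minus strand, 8 exons, 3384 bp) and scaffold337.137 (chromosome 7, 245283495 to 245290638, plus strand, 20 exons, 2901 bp). The former was at 51.6 and 52.4 CPM at 20 DAA and at 813 and 640 CPM at 68 DAA, and the latter at 54.3 and 50.5 CPM and at 664 and 793 CPM. They differ in exon number and reached almost the same fold, 13.96 and 13.89.

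The 2 shortest had little in common but length. At 192 bp, scaffold1237.35 (chromosome 5, 659042 to 659872, minus strand, 3 exons) was at 16.3 and 15.8 CPM at 20 DAA and at 856 and 743 CPM at 68 DAA. At 228 bp, scaffold282.87 (chromosome 8, 1563843 to 1564916, minus strand, 2 exons) had 3 and 5 counts at 20 DAA, or 0.121 and 0.234 CPM, and 3176 and 3313 CPM at 68 DAA. Its fold of 18275 has a counting interval from 9275 to 42331, and the fold of the shorter one was 49.8.

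The members were spread over all 12 chromosomes. Chromosome 3 had the most, 17 of 98 or 17.3%, against 10.7% of all models and 11.9% of the tested genes. It held 9.47% of the other abundant genes at 68 DAA and 13.8% of the mirror image at 20 DAA. Chromosome 8 had 2 members. A further 10 members lay on scaffolds not placed on a chromosome, where 11.8% of all models lie. The counts were distributed otherwise than the genes: the members of chromosome 2 held 26.6% of the members' summed CPM at 68 DAA and those of chromosome 6 held 18.2%. These are the chromosomes of scaffold1014.51 and scaffold919.38, which alone made 16.3% and 13.8% of that sum.

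Few members were next to another member. A distance of at most 100 kb separated 6 pairs, with 12 members, and in 1 of these no other model lay between. This pair was scaffold1161.30 and scaffold1161.31 (chromosome 10, 233049798 to 233051981), on the same strand and 3195 bp apart, with 2 exons each. The second was at 0.161 and 0.281 CPM at 20 DAA and at 706 and 1328 CPM at 68 DAA. Both were nearly without counts in immature fruit, and in mature fruit the shorter model was several times higher in each library. How the sequences of the pair compare is not known here, so reads that fit both models could not be examined.

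Next to the members, 190 other models are annotated, and 123 of them were tested. Of these, 18 or 14.6% were called higher at 68 DAA, against 8.22% of all tested genes, and 13 or 10.6% were called lower, against 18.7%. Their median log2 fold change was 0.04, against -0.05 for all tested genes that are not members. Within 5000 bp of a member there were 32 tested neighbours, of which 4 were called higher and 2 lower. Of all neighbours, 5 were abundant at 68 DAA, and 3 of these were left out by the rule because they had at most 3 counts in each library at 20 DAA. These 3, named after their values were seen, were scaffold929.13 and scaffold929.15 on either side of scaffold929.14, and scaffold358.33 next to scaffold358.34. Their mean levels at 68 DAA were 1942, 1333 and 1880 CPM. The median log2 fold change of the neighbours thus stayed near 0, although a larger part of them was called higher than of all tested genes.

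The annotation names the kind of evidence behind each model by a source tag, whose meaning the file does not explain. The tag ISGAP was on 72.4% of the members, close to its 74.5% of the tested genes. The tag UNIPROT was on 16 members, or 16.3%, against 2.58% of the tested genes and 26.3% of the other abundant genes at 68 DAA. It was on scaffold1014.51, scaffold919.38 and scaffold282.87. The more frequent tag was thus a property that the members shared with other abundant genes.

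The room that the members took bears on how all other genes are read. Genes that are not members held 99.3% of the counts on genes in both libraries at 20 DAA, and 77.2 and 74.3% at 68 DAA. Scaling to library totals alone therefore lowers each of the others by 0.39 on the log2 scale, 1.31-fold, when the total includes the members. The median log2 fold change of the tested genes that are not members was -0.31 with library totals, -0.05 with TMM and 0.08 with totals that leave the members out. With these 3 scalings, all 98 members remained called higher, and the part of calls that were higher at 68 DAA was 26.1%, 30.6% and 33.7%.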

How the data were processed

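RNA-Seq libraries of Chiltepin fruits at 20 DAA and 68 DAA were analysed, with 2 libraries per stage. The authors trimmed reads with Trimmomatic 0.36, aligned them with HISAT2 2.1.0, counted them on genes with HTSeq 0.11.0 and deposited raw counts per gene and library, with the gene models. Gene models and coordinates are those of CM334 version 1.6, which the methods of the study name as reference. Whether counting used strand is not given in the sources used here, so overlapping genes on opposite strands cannot be told apart. Reads between near-identical copies could not be examined.

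Entries that name no gene, 31.7 to 38.2% of each file, were left out of library sizes. Depth limits low counts most in replicate 1 at 68 DAA, where 3 counts are 0.247 CPM. Stages and replicates were taken from the labels. Replicates were separate collections of pooled fruits, and their counts differed by more than sampling noise (chi-square over its degrees of freedom 16.0 in immature and 29.6 in mature fruit).

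Counts were tested with the edgeR 4.0.16 quasi-likelihood test after TMM normalization in R 4.3.3, after a filter that kept a mean log2 CPM of 1 or more, with Benjamini-Hochberg adjustment over all 17160 tested genes. A call needed an adjusted p under 0.01 and at least 4-fold. Standard errors are from log2 CPM (prior count 2) between replicates and rest on 2 libraries per stage. The script was tested on simulated data. Shares, structure and figures were computed with Python 3.11.15, pandas 2.3.3, scipy 1.17.1 and matplotlib 3.10.9.

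The members and lists were chosen with earlier results of these data known. Named members are those highest at 68 DAA, with the largest fold, highest at 20 DAA, with the largest difference between replicates, longest, shortest, adjacent, or nearest the limits. Exceptions are named in the text. Alternatives were other limits, normalizations and filters, DESeq2 1.42.0, a replicate block and each library left out.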

Additional observations from a re-analysis of the deposited data

How the results depend on the processing

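The number of members followed the CPM limit, with 191 at 250 CPM and 51 at 1000 CPM instead of 98. With 1 library left out it ranged from 93 to 116. When the rule was applied to replicate 1 alone, 88 of 93 genes chosen also passed every limit in replicate 2, and 88 of 114 in the reverse direction. The members' share of 24.3% at 68 DAA was 16.1% with all entries in the denominator, 28.8% per coding length, 20.3% without the first member and 17.0% without the first 2, the last chosen after seeing the data. The share of 0.731% at 20 DAA was then 0.465%, 0.600%, 0.701% and 0.701%. With 1 library left out the shares ranged from 22.8 to 25.7% and from 0.722 to 0.741%. Calls over all genes numbered 4615, and 9904 with no fold limit. They ranged from 4315 to 4662 with 1 library left out, and the members called higher from 97 to 98. The median log2 fold change of the members was 5.05 with library totals instead of 5.32, and ranged from 5.20 to 5.42 with 1 library left out. That of the other genes was -0.31 with library totals, 0.0072 with TMM factors without the members and 0.082 with totals without them. Relative to all models, the ratio of medians was 1.26 for coding length, 1.33 for exon number and 1.15 for span. Relative to tested genes these were 0.966, 0.800 and 0.699, and to the other abundant genes 0.976, 0.800 and 0.883. All 165 values of the 15 named members under the alternative fits kept their direction. The same libraries chose these members, so this adds no support. Replicates were separate collections of fruits and no source used here says that a number is shared between stages, so the numbers were not taken to pair the samples. The deviations of libraries with the same number had a correlation of 0.0251 across genes, which cannot decide whether samples are paired. With a replicate block 4665 genes and all 98 members were called. The smallest p that an exact permutation test of 2 against 2 libraries allows is 0.333 (two-sided).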
